A study of Mus musculus with 18 samples.

Results

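The comparison described here sets 3 arrays of 2i converted cells against 3 arrays of J1 embryonic stem (ES) cells, 6 of the 18 arrays of a mouse study of full and partial reprogramming. The arrays were chosen by their titles. Each of 19937 genes was read from 1 probe set with a single gene symbol, the brightest on average where a gene had several. The 2i converted cells descend from EOS3F-24, an induced pluripotent stem (iPS) line that the labels call partial. It was made from CD1 mouse embryonic fibroblasts (MEFs) with pMX retroviruses carrying Oct4, Klf4 and Sox2 and no Myc. Conversion used a MEK inhibitor at 2 μM together with a GSK inhibitor at 12 μM in ES medium with LIF. J1, a widely used male mouse ES line, was not labelled as treated with either inhibitor and carries none of the retroviruses. LIF and arrested feeder cells were used for both groups, while puromycin selection, at 1 μg/mL, applied to the EOS3F lines, and the labels do not say whether it went on during and after conversion. The other 12 arrays hold EOS3F-24 before conversion, the full iPS lines EOS3F-28 and EOS3F-29, and the starting CD1 MEFs, with 3 arrays in each group. Every iPS group is 1 line, so inhibitor treatment, reprogramming, puromycin, strain and the line itself cannot be told apart in a difference from J1. The labels do not say that the 3 arrays of a group came from separate cultures, so p-values measure the spread between these samples, which may be technical. The RNA comes from bulk cultures, in which fewer cells of a type and less RNA per cell cannot be told apart.

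Mouse ES cells keep an undifferentiated state through a network of transcription factors around Oct4 (Pou5f1), Sox2 and Nanog, and LIF holds it up by acting through its receptor and STAT3. Signalling from FGF through MEK and ERK pushes these cells towards differentiation, and GSK3 marks beta-catenin for destruction. The 2i inhibitors block MEK and GSK3, and are known for bringing incompletely reprogrammed cells into the naive pluripotent state. In female cells one X chromosome is silenced by the Xist RNA, and naive pluripotent female cells carry an active pair of X chromosomes and tend to lose one of them in culture.

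The gene with the largest difference was Nr1h5, which encodes a nuclear receptor of the farnesoid X receptor kind that binds lanosterol in the mouse. Its neighbour on chromosome 3, Sycp1, which encodes a filament protein of the synaptonemal complex of meiosis, had the smallest adjusted p after Nr1h5 among the higher genes. Both lie on the minus strand with 1 annotated gene, Gm33866, between them. Because these neighbours moved together, their promoters are shown for comparison. Each covers 250 bases before to 50 bases after the gene's start (RefSeq, build GRCm38.p6), as chr3:102964084-102964383 for Nr1h5 and chr3:102936051-102936350 for Sycp1, both on the minus strand. Capitals mark CACGTG, the E-box that was searched for, which reads the same on both strands.
Nr1h5: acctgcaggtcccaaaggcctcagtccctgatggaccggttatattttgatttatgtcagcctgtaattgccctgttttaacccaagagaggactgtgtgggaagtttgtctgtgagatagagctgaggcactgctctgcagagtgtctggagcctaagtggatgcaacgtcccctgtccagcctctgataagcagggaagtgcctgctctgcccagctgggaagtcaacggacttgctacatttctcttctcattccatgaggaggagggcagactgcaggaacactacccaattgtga
Sycp1: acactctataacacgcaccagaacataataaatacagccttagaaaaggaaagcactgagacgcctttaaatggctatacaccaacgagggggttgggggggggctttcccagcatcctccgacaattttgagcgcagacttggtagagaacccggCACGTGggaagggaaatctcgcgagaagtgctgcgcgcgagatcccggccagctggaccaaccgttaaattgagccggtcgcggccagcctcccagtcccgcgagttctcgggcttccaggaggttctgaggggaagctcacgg
The Sycp1 promoter holds 1 CACGTG, which starts 94 bases before the gene's start, and that of Nr1h5 holds none. Of 32851 promoters in the table, 7.15% hold it. The Sycp1 promoter has 21 CpG dinucleotides and that of Nr1h5 has 3, beside a median of 7 over all promoters. Their GC contents are 56.67% for Sycp1 and 51.67% for Nr1h5, beside a median of 52.67%.

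The arrays of both groups were closely alike. Their medians lay between 3.99 and 4.11 on the log2 scale of the deposited values. Arrays correlated over genes at 0.981 to 0.992 within the converted cells, at 0.972 to 0.989 within J1, and at 0.969 to 0.988 between the groups. In a limma fit of all 18 arrays, 342 of 19937 genes passed an adjusted p of 0.05 (Benjamini-Hochberg), which is 1.72% of the genes. These genes are referred to as called. Of them, 212 were higher in the converted cells (1.06%) and 130 were lower (0.652%). At least a 2-fold difference was found for 65 genes (0.326%), 39 higher (0.196%) and 26 lower (0.13%), and the arrays of the groups did not overlap for 64 of the 65 (0.321%). Without any adjustment 2233 genes had a p under 0.05 (11.2%), and 3135 genes had non-overlapping arrays (15.7%). The median difference over all genes was -0.02. The count of calls was 155 without converted array 2, 136 without converted array 3, 223 without J1 array 2 and 133 without J1 array 3. With arrays of equal number treated as pairs in a fit of the 6 arrays, called the paired fit here, it was 1087 (619 higher and 468 lower, or 5.45% of the genes in all). The paired fit changes both the arrays fitted and the pairing. With the 6 arrays alone the count was 173, and with the pairing in all 18 arrays it was 376. With each array centred on a list of housekeeping genes it was 85, of which 32 were higher and 53 lower, and that centring moved the median of all genes to -0.17. The housekeeping list holds Hprt, an X gene that was itself called higher.

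For the central genes of the pluripotency network no difference between converted cells and J1 passed the test, and their arrays overlapped. Pou5f1, the central factor of the network, had log2 values of 9.54, 9.68 and 9.70 in converted cells, against 9.70, 9.28 and 9.62 in J1. The groups overlapped, and the difference was 0.11 (95% interval -0.23 to 0.45, adjusted p = 0.922, limma). An array may read the viral as well as the endogenous transcripts of Pou5f1, Sox2 and Klf4, and the values cannot separate them. Nanog, a homeodomain factor that stabilises self-renewal, had 9.06, 8.97 and 9.48 in converted cells, against 9.08, 9.0 and 9.18 in J1. Its difference was 0.08 (95% interval -0.39 to 0.56), and the partial line averaged 4.57 ± 0.51 (SD, n = 3). Esrrb, an orphan nuclear receptor of the naive state, had 7.74, 8.15 and 8.18 in converted cells, against 7.83, 7.83 and 8.10 in J1. The arrays of Esrrb overlapped too, with a difference of 0.10 (95% interval -0.25 to 0.46), beside a mean of 3.89 in the partial line. Zfp42 (Rex1), a classic ES cell marker, had 8.18, 7.80 and 8.08 in converted cells, against 8.38, 7.42 and 8.22 in J1. Its difference was 0.01 (95% interval -0.46 to 0.48). None of these 4 differences passed the test, and each interval stays within 0.6 of 0 on the log2 scale.

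**Figure D1:**
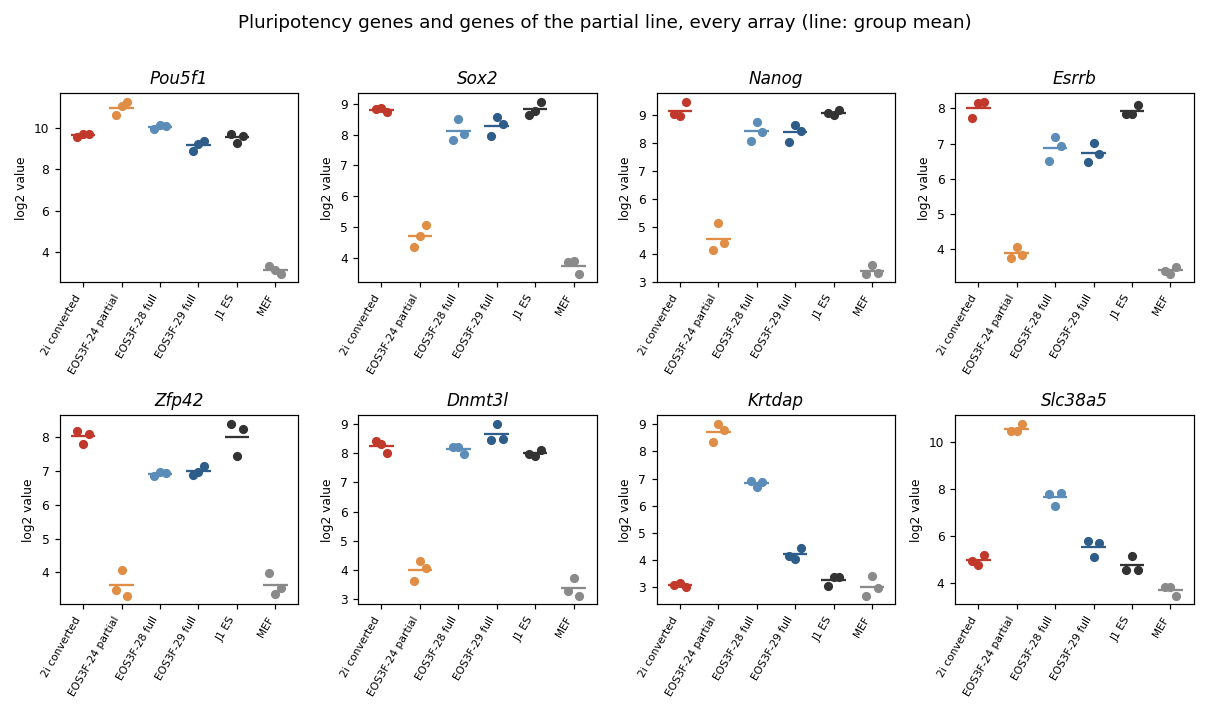
Log2 array values (vertical axes) of 8 genes in every array, with groups along the horizontal axis and a line at each group mean of 3 arrays. The converted cells sit with J1 for the pluripotency genes, for example a Nanog mean of 9.17 against 9.09, and for Krtdap and Slc38a5, which are high in the partial line.

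Sox2, the HMG-box partner of Oct4, differed by -0.01, Klf4 by -0.03, and Prdm14, a repressor that guards the naive state, by -0.10. Dppa3, a maternal factor that protects methylation in the zygote, differed by 0.11. Dnmt3b and Dnmt3l, a de novo DNA methyltransferase and its cofactor, differed by 0.20 and 0.26. None of these 6 was called. Of 21 core pluripotency genes measured, none was called higher and 1 was called lower, with 3 of 21 at an unadjusted p under 0.05 and a list median of -0.03. The lower gene was Lin28b, an RNA-binding protein that blocks let-7 maturation. Lin28b had 4.69, 4.65 and 4.42 in converted cells, against 5.05, 4.98 and 5.34 in J1, a difference of -0.54 ± 0.12 (SE, adjusted p = 0.0321, limma). The arrays did not overlap, but the adjusted p was 0.0847 without converted array 2, 0.182 without converted array 3 and 0.2 without J1 array 3. In the paired fit 3 of the 21 core genes were called lower and 0 higher, beside 2.35% and 3.1% of all genes.

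Naive genes gave 1 call higher and none lower among 17 measured, with a list median of -0.04. The call was Tcl1, a coactivator of the kinase Akt that is abundant in ES cells. Tcl1 had 7.69, 8.13 and 8.22 in converted cells, against 6.94, 6.54 and 6.88 in J1. Every converted array was above every J1 array, by a mean of 1.22 ± 0.18 (SE, adjusted p = 0.00157, limma). The full lines averaged 5.33 and 5.65 for Tcl1, so the converted cells exceeded them by 2.52 (adjusted p = 1.02e-07, limma) and J1 exceeded them as well. In 5 naive genes the unadjusted p was under 0.05 in the lower direction, and none of the 5 was called. Klf2, a Kruppel-like factor that MEK inhibition is known to stabilise as a protein, had 7.40, 7.08 and 6.96 in converted cells, against 7.52, 7.53 and 7.84 in J1, which gives -0.48 (adjusted p = 0.175, limma). Primed epiblast genes, which mark the later state of the postimplantation embryo, had 0 calls by limma among 16 measured, with 4 at an unadjusted p under 0.05. Fgf5, the usual marker of that state, differed by -0.09, and Otx2, a homeodomain factor of the same transition, by 0.58 (adjusted p = 0.313, limma, and 0.00697 in the paired fit). The paired fit called 1 naive gene higher and 2 lower, and 3 primed genes higher and 1 lower. Over all genes that fit called 3.1% higher and 2.35% lower.

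Genes listed for standing out in the partial line before conversion had low list medians in the converted cells and in J1. By limma none of 13 such genes was called, with 2 at an unadjusted p under 0.05, although these genes were picked for their level in the partial line in earlier work on these arrays. The paired fit called 1 of the 13 higher, beside 3.1% of all genes. Aqp3, outside that list and described below, was above J1 in every partial and every converted array. Krtdap, a keratinocyte differentiation protein, had 3.07, 3.12 and 3.0 in converted cells, against 3.02, 3.36 and 3.37 in J1, and averaged 8.72 in the partial line. Slc38a5, an amino acid transporter, had 4.93, 4.77 and 5.18 in converted cells, against 4.54, 5.16 and 4.56 in J1, and averaged 10.58 in the partial line. For both genes the arrays of the groups overlapped. The full line EOS3F-28 averaged 6.82 for Krtdap and 7.65 for Slc38a5. The full line EOS3F-29 was lower, with 4.15, 4.03 and 4.42 for Krtdap and 5.77, 5.09 and 5.69 for Slc38a5. Converted cells were below the mean of these unlike lines by 2.44 on the log2 scale for Krtdap (converted minus full -2.44, adjusted p = 1.02e-07, limma). Myc varied more between arrays than between the groups, with 5.96, 4.17 and 4.59 in converted cells against 6.32, 4.85 and 5.41 in J1. Its difference of -0.62 was not called (adjusted p = 0.664, limma), and in the paired fit the adjusted p was 0.00697.

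Few markers of other cells differed between the groups. Of 26 fibroblast and feeder genes 0 were called by limma and 0 had an unadjusted p under 0.05, and their summed log2 values spanned 167 to 196 in converted arrays and 168 to 194 in J1 arrays. Col1a1, the main collagen chain of fibroblasts, had 8.81, 7.22 and 7.74 in converted cells, against 9.15, 7.90 and 8.46 in J1, which gives -0.58 (adjusted p = 0.817, limma, and 0.00964 in the paired fit). Array 1 of both groups had the highest value of its group. In each numbered pair the converted array was the lower one, and the part of fibroblast RNA in the results was not tested. The paired fit called 1 of the 26 fibroblast and feeder genes higher and 2 lower, beside 3.1% and 2.35% of all genes. Macrophage and endothelial genes gave 0 calls by limma among 15, with 0 at an unadjusted p under 0.05. Trophoblast genes gave 0 among 15 with 1 at that p, mesendoderm genes 0 among 12 with 0, and neural genes 0 among 12 with 1. In the paired fit each of these 4 lists had 1 call. Cdx2, the defining trophoblast factor, differed by 0.09, and the primitive endoderm factors Gata4 and Gata6 both by 0.06. In the primitive endoderm list 1 of 19 genes was called, Apoe, a lipid carrier that ES cells also express. Apoe had 9.31, 9.93 and 9.86 in converted cells, against 8.39, 8.68 and 8.72 in J1, a difference of 1.10 ± 0.23 (SE, adjusted p = 0.0162, limma). The arrays did not overlap. The adjusted p of Apoe was 0.1 without converted array 2, 0.103 without converted array 3, 0.0534 without J1 array 1 and 0.0531 without J1 array 3.

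Among genes that report the pathways touched by 2i or by LIF, ERK response genes were called in both directions and LIF response genes in the lower direction. ERK response genes, which rise when MEK is active, gave 1 call higher and 2 lower among 22, with a list median of -0.03. Over all genes 1.06% were called higher and 0.652% lower. The paired fit called 1 of the 22 higher and 3 lower, beside 3.1% and 2.35% of all genes. Etv4, an ETS factor downstream of ERK, had 5.13, 5.15 and 5.10 in converted cells, against 5.91, 5.60 and 5.72 in J1, a difference of -0.61 ± 0.13 (SE, adjusted p = 0.0171, limma). Etv4 had 5.02, 5.11 and 5.11 in the partial line, 4.73, 4.84 and 5.04 in EOS3F-28, and 5.25, 5.53 and 5.44 in EOS3F-29. Those lines were not labelled as treated with either inhibitor. Spry4, a feedback inhibitor of receptor tyrosine kinases, had 6.69, 5.29 and 5.91 in converted cells, against 7.40, 6.65 and 7.20 in J1. Its difference was -1.12 ± 0.25 (SE, adjusted p = 0.0294, limma), although converted array 1 reached above the lowest J1 array. Spry4 had 5.48, 5.26 and 5.17 in the partial line, 5.86, 6.01 and 6.06 in EOS3F-28, and 6.24, 6.68 and 6.51 in EOS3F-29. Dusp4, a nuclear phosphatase of ERK, went the other way with 5.43, 6.05 and 5.62 in converted cells, against 4.69, 4.97 and 5.09 in J1. It was higher by 0.78 ± 0.16 (SE, adjusted p = 0.0141, limma) without overlap, and the full lines were also above J1, by 1.16. The most used ERK readouts were not called. Dusp6, the cytoplasmic ERK phosphatase, differed by 0.13 (95% interval -0.40 to 0.67), Egr1, an immediate early factor, by -0.24, and Spry2 by 0.12. All 3 ERK calls rest on few arrays. For Etv4 the adjusted p was 0.0659 without converted array 2, 0.0847 without converted array 3, 0.0621 without J1 array 1 and 0.0647 without J1 array 3. For Spry4 it was 0.157, 0.13, 0.0978 and 0.141 without the same 4 arrays in that order. For Dusp4 it was 0.0957 without converted array 2 and 0.0533 without J1 array 1.

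The LIF pathway list gave 2 calls lower, beside 0.652% of all genes, and none higher among 13, with a list median of -0.16. Its summed log2 values were 75.5 to 76.1 in converted arrays and 77.6 to 78.7 in J1 arrays. The paired fit called 3 of the 13 lower and none higher, beside 2.35% and 3.1% of all genes. Lifr, the receptor chain that binds LIF, had 5.43, 5.62 and 5.63 in converted cells, against 6.25, 6.26 and 6.31 in J1. No arrays overlapped, and the difference was -0.72 ± 0.12 (SE, adjusted p = 0.00328, limma). Both full lines were as low, at 5.20 and 5.61, and differed from J1 by -0.87 on average (adjusted p = 7.36e-05, limma). Socs3, a feedback inhibitor that STAT3 induces, had 6.28, 6.15 and 6.05 in converted cells, against 6.53, 6.97 and 6.94 in J1, a difference of -0.65 ± 0.15 (SE, adjusted p = 0.0345, limma). Again the arrays did not overlap, and the full lines averaged 5.72 and 6.18. The Socs3 call was lost without converted array 2 (adjusted p = 0.12), converted array 3 (0.166), J1 array 2 (0.145) or J1 array 3 (0.175). Stat3 itself had 6.57, 6.34 and 6.62 in converted cells, against 6.98, 6.88 and 7.01 in J1, and its difference of -0.45 was not called (adjusted p = 0.183, limma, and 0.0244 in the paired fit). Wnt response genes gave 0 calls by limma among 18, with 3 at an unadjusted p under 0.05 and a list median of -0.09. Axin2, the standard target of beta-catenin, had 4.16, 4.08 and 3.98 in converted cells, against 4.44, 4.35 and 4.47 in J1. Its arrays did not overlap, and the difference of -0.34 was not called (adjusted p = 0.158, limma). Lef1, a partner of beta-catenin, differed by 0.11. BMP and Id genes gave 0 calls by limma among 14, with 2 at an unadjusted p under 0.05. The paired fit called 2 of the 14 higher and 1 lower, beside 3.1% and 2.35% of all genes.

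**Figure D2:**
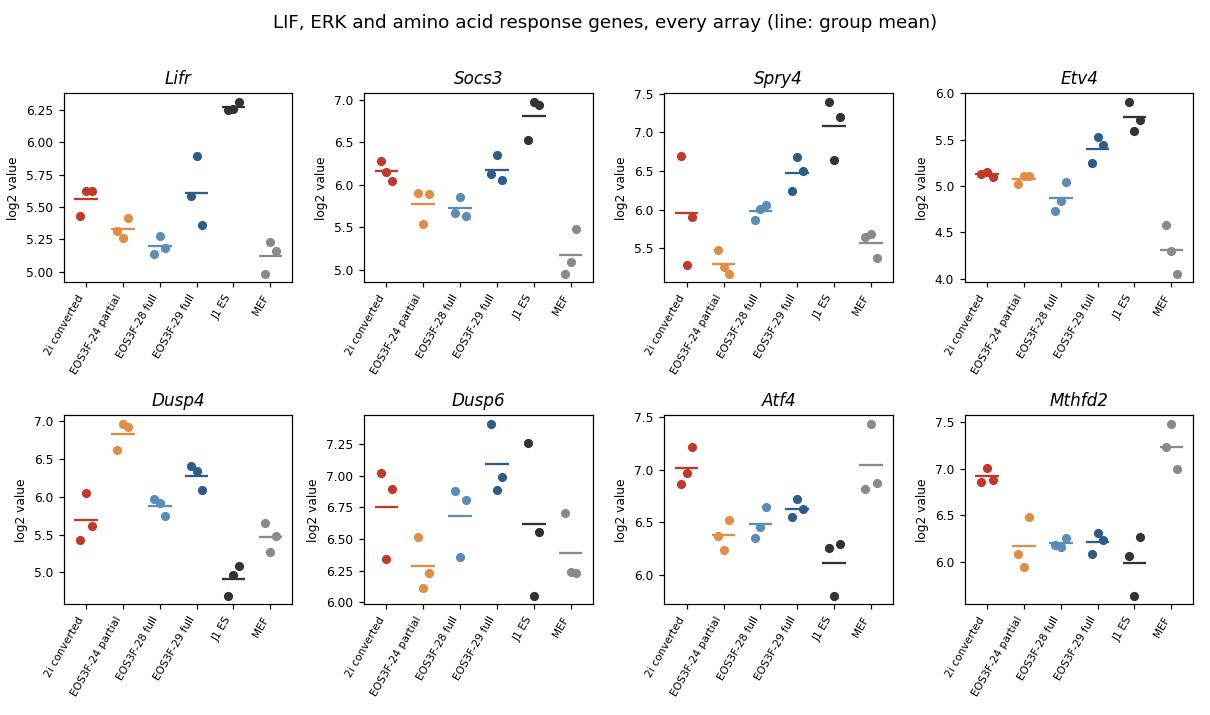
Log2 array values (vertical axes) of 8 genes of the LIF, ERK and amino acid responses in every array, with a line at each group mean of 3 arrays. Lifr and Socs3 are lower in the converted cells than in J1, while Dusp6 overlaps between them.

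Several of the genes with the largest positive differences were also high in the full lines. Nr1h5 had 6.45, 6.85 and 7.03 in converted cells, against 3.24, 2.80 and 2.93 in J1. The gap between the groups was wide and the difference was 3.79 ± 0.24 (SE, adjusted p = 2.46e-07, limma). In the full lines Nr1h5 averaged 5.75 and 5.77, in the partial line 4.79 and in MEFs 3.18, and converted cells exceeded the mean of the full lines by 1.02 (adjusted p = 0.0079, limma). Sycp1 had 4.63, 4.51 and 4.34 in converted cells, against 2.81, 2.87 and 2.84 in J1, a difference of 1.66 ± 0.13 (SE, adjusted p = 1.57e-06, limma). It averaged 3.66 and 3.76 in the full lines and 2.73 in the partial line. No arrays overlapped for Sycp1. The other neighbours of the pair on chromosome 3 were not called. Among them Vangl1, a planar polarity protein, differed by 0.30, the tetraspanin Tspan2 by 0.50, Sike1 by 0.42, Tshb by 0.02, the small GTPase Nras by -0.14 and Ampd1 by -0.07. In the germline list Sycp1 was the only call among 24 genes, with 7 at an unadjusted p under 0.05, 3 higher and 4 lower. Sycp3, an axial element protein of meiotic chromosomes, differed by 0.92 (adjusted p = 0.399, limma, and 0.00231 in the paired fit), and Ddx4, the germ cell helicase Vasa, by -0.81 (adjusted p = 0.189, limma, and 0.000884 in the paired fit). In the paired fit 3 of the 24 germline genes were called higher and 5 lower, beside 3.1% and 2.35% of all genes.

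**Figure D3:**
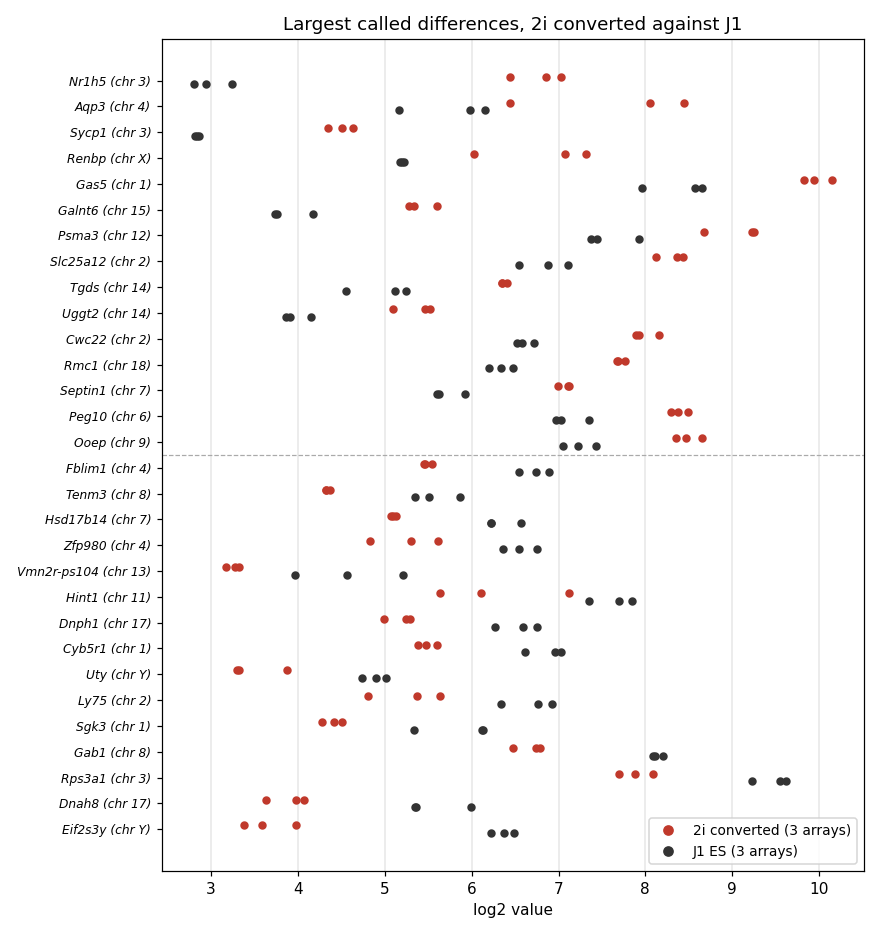
Log2 values (horizontal axis) of the 15 genes with the largest called higher values, above the dashed line, and the 15 with the largest called lower values, below it, with each of the 3 converted and 3 J1 arrays as a point. The groups do not overlap for any gene shown, and Nr1h5 has the widest gap.

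Galnt6, an enzyme that starts mucin-type glycan chains, had 5.28, 5.34 and 5.60 in converted cells, against 3.74, 4.17 and 3.75 in J1, a difference of 1.52 ± 0.15 (SE, adjusted p = 2.24e-05, limma). Slc25a12, the mitochondrial carrier that exchanges aspartate for glutamate, had 8.43, 8.13 and 8.36 in converted cells, against 7.11, 6.54 and 6.88 in J1. It was higher by 1.46 ± 0.13 (SE), and the full lines averaged 7.96 and 7.82. Neither gene overlapped between the groups. For Uggt2, a sensor of misfolded glycoproteins in the endoplasmic reticulum, the difference from J1 was 1.39 and that from the full lines was -0.19. For the splicing factor Cwc22 these differences were 1.38 and 0.18, and for Rmc1, a regulator of Rab7 activation, 1.37 and -0.34. Thus the levels of these 3 genes did not pass the test against the full lines. Gas5, a noncoding RNA that hosts small nucleolar RNAs, differed by 1.58 at the probe set used, while its other probe sets differed by -0.04, 0.04 and 0.99, so its call depends on the probe set. The water and glycerol channel Aqp3 had 6.44, 8.44 and 8.06 in converted cells, against 5.17, 6.15 and 5.98 in J1, a difference of 1.88 ± 0.39 (SE, adjusted p = 0.0177, limma). Its lowest converted array lay close to the highest J1 array. Aqp3 had 7.63, 8.66 and 8.59 in the partial line, 6.86, 7.55 and 7.12 in EOS3F-28, and 5.98, 6.29 and 6.49 in EOS3F-29. The adjusted p of Aqp3 was 0.114 without converted array 2, 0.121 without converted array 3, 0.0659 without J1 array 1 and 0.0551 without J1 array 3.

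Other genes were higher in converted cells than in both J1 and the full lines. Ooep, a subunit of the maternal complex of the oocyte cortex, had 8.35, 8.65 and 8.47 in converted cells, against 7.06, 7.22 and 7.43 in J1, a difference of 1.25 ± 0.19 (SE, adjusted p = 0.0016, limma). Against the full lines its difference was 1.52 (adjusted p = 4.45e-05, limma). Peg10, a retrotransposon-derived gene expressed from the paternal allele, had 8.30, 8.38 and 8.49 in converted cells, against 6.97, 7.35 and 7.03 in J1. The arrays of both genes were clear of each other. Peg10 differed by 1.27 ± 0.25 (SE, adjusted p = 0.0135, limma), and by 1.08 from the full lines. Peg10 was the single call among 21 imprinted genes, with 7 at an unadjusted p under 0.05. Its adjusted p was 0.0575 without converted array 2, 0.0773 without converted array 3 and 0.0702 without J1 array 3. Meg3, the maternally expressed RNA of the Dlk1 cluster whose silencing marks poor iPS lines, had 7.65, 7.81 and 7.63 in converted cells, against 7.52, 7.57 and 7.86 in J1. The groups overlapped with a difference of 0.05 (95% interval -0.28 to 0.37). Grb10 and Phlda2, a growth-restraining adaptor and a placental growth regulator that are both imprinted, differed by -0.64 and -0.76 without a call (adjusted p = 0.0794 and 0.054, limma). Grb10 was called without converted array 1 (adjusted p = 0.031) and Phlda2 without J1 array 2 (0.0323), and the paired fit gave adjusted p-values of 0.00541 and 0.00861. That fit called 4 of the 21 imprinted genes higher and 3 lower, beside 3.1% and 2.35% of all genes.

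Among the lower genes 2 were encoded on the Y chromosome. Eif2s3y, the Y copy of a subunit of the translation factor eIF2, had 3.98, 3.38 and 3.59 in converted cells, against 6.37, 6.49 and 6.22 in J1. The gap exceeded 2 log2 units between the nearest arrays, and the difference was -2.71 ± 0.18 (SE, adjusted p = 2.69e-07, limma). The partial line before conversion averaged 4.02, while the full lines averaged 6.14 and 5.66 and the MEFs 5.98. Uty, the Y copy of the histone demethylase Utx, had 3.87, 3.32 and 3.29 in converted cells, against 4.89, 4.74 and 5.02 in J1, a difference of -1.39 ± 0.19 (SE, adjusted p = 0.000874, limma). The partial line averaged 3.62 for Uty. Of 9 Y genes tested these 2 were called, and Kdm5d, with values near 3 in both groups, differed by 0.02. The labels do not give the sex of the lines.

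Several of the other lower genes sat near the mean of the full lines. Rps3a1, a ribosomal protein gene with many near-identical copies that the array may not separate, had 7.88, 8.09 and 7.70 in converted cells, against 9.62, 9.23 and 9.55 in J1, and averaged 7.42 and 7.83 in the full lines. Gab1, a docking protein of receptor tyrosine kinases, had 6.47, 6.74 and 6.78 in converted cells, against 8.09, 8.20 and 8.11 in J1, a difference of -1.47 ± 0.16 (SE, adjusted p = 8.25e-05, limma). Cyb5r1, a cytochrome b5 reductase, had 5.60, 5.38 and 5.47 in converted cells, against 6.96, 6.62 and 7.03 in J1, a difference of -1.38 ± 0.12 (SE, adjusted p = 1.05e-05, limma). In all 3 genes the lowest J1 array was above the highest converted array. Against the full lines Rps3a1 differed by 0.26, Gab1 by -0.04, Cyb5r1 by -0.04, the endocytic receptor Ly75 by 0.26, the cell adhesion protein Tenm3 by 0.07 and the dehydrogenase Hsd17b14 by 0.08, none of them called, beside differences from J1 of -1.58, -1.47, -1.38, -1.40, -1.24 and -1.24. Hint1, a nucleotide hydrolase, differed from both, by -1.34 from J1 and by -1.01 from the full lines (adjusted p = 0.0113, limma). Its arrays were 7.12, 6.11 and 5.64 in converted cells, against 7.84, 7.35 and 7.69 in J1. The Hint1 call against J1 was lost without converted array 2 (adjusted p = 0.0606), converted array 3 (0.0593) or J1 array 3 (0.0531). Zfp980, a zinc finger gene with a difference of -1.30, lost its call without converted array 2 (adjusted p = 0.0675).

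The adhesion genes of the ES cell surface were near the threshold. Cdh1 (E-cadherin) had 7.32, 7.66 and 7.87 in converted cells, against 8.06, 8.26 and 8.41 in J1. It was lower by 0.63 in mean (-0.63, adjusted p = 0.124, limma), with no overlap and no call. Epcam, an epithelial adhesion molecule of ES cells, had 7.66, 7.85 and 7.83 in converted cells, against 6.49, 6.83 and 6.94 in J1, which gives 1.03 (adjusted p = 0.0761, limma). In the paired fit the adjusted p was 0.00397 for Cdh1 and 0.000138 for Epcam. Over the epithelial list 0 of 24 genes were called by limma, with 3 at an unadjusted p under 0.05. The paired fit gave 1 call in each direction, beside 3.1% of all genes higher and 2.35% lower. Jam2, a junctional adhesion molecule outside the list that was chosen after its values were seen, was higher by 1.02 ± 0.16 (SE, adjusted p = 0.00258, limma).

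Higher genes were unevenly spread over the chromosomes. Chromosomes X and 12 held 85 of the 212 higher genes. On X 52 of 739 genes tested were called higher (7.04%) and 1 lower, the germ cell gene Tex11 at -1.21, named after its value was seen. On chromosome 12 33 of 652 were called higher (5.06%) and 1 lower. Of the remaining 18546 genes, 127 were called higher (0.685%), with 0.192% to 1.86% on each of the other 18 autosomes. In the paired fit these counts were 102 on X (13.8%), 100 on chromosome 12 (15.3%) and 417 on the other autosomes (2.26%). Without converted array 2 the counts were 33 (4.47%) on X, 15 (2.3%) on chromosome 12 and 52 (0.282%) on the other autosomes. Without converted array 3 they were 26 (3.52%), 10 (1.53%) and 41 (0.222%) in that order. Without J1 array 2 they were 33 (4.47%), 17 (2.61%) and 70 (0.379%). Without J1 array 3 they were 28 (3.79%), 12 (1.84%) and 45 (0.244%). Over the 127 X genes that averaged at least 6 on the log2 scale the median difference was 0.28, and 76.4% of them were above 0. Array by array, the X median relative to the J1 mean was 0.29, 0.25 and 0.32 in converted cells, against 0.02, -0.04 and 0.00 in J1. Chromosome 12 had a median of 0.32 over 136 genes, of which 91.2% were above 0, with arrays at 0.32, 0.34 and 0.37 in converted cells, against 0.04, -0.09 and 0.03 in J1. The medians of the other 18 chromosomes lay between -0.10 and 0.07. The converted arrays were thus above the J1 arrays on both chromosomes, by an amount well outside the spread between arrays. The full lines EOS3F-28 and EOS3F-29 differed from J1 by a median of 0.07 and 0.04 on X and by 0.06 and -0.02 on chromosome 12. The partial line differed from J1 by 0.17 on X and 0.18 on chromosome 12, and MEFs by 0.17 on both. Over the other 18 chromosomes the partial line differed from J1 by -0.30 (chromosome 8) to 0.20 (chromosome 6). For MEFs that range was -0.42 (chromosome 8) to 0.11 (chromosome 6). Under housekeeping centring the medians were 0.14 on X and 0.18 on chromosome 12, beside -0.17 over all genes. Relative to the median of all genes, X stood at 0.31 and chromosome 12 at 0.35, both in the deposited values and under that centring.

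**Figure D4:**
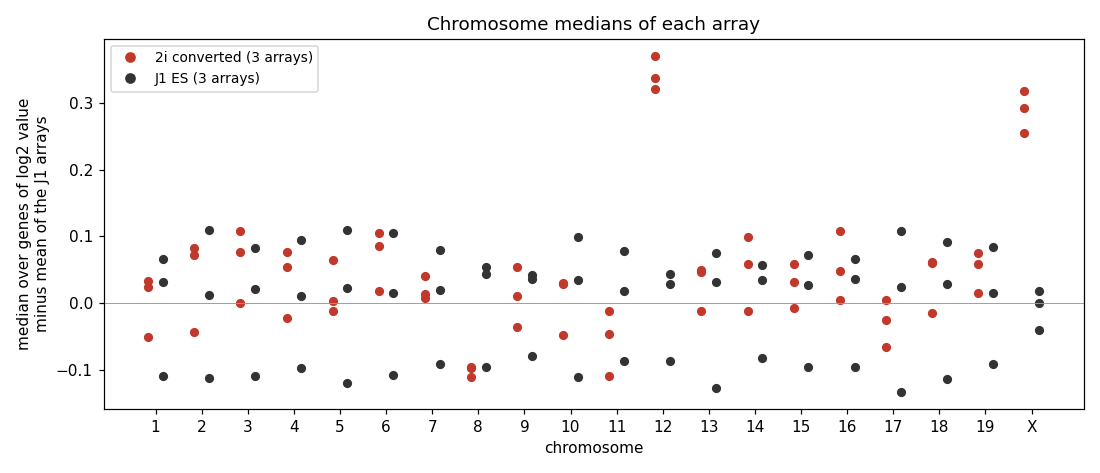
Median, over genes averaging at least 6 on the log2 scale, of the log2 value minus the mean of the J1 arrays (vertical axis), by chromosome (horizontal axis), with each of the 3 converted and 3 J1 arrays as a point. The converted arrays on chromosomes 12 and X, at 0.25 to 0.37, stand above all J1 arrays, whereas on the other 18 chromosomes their medians lie near 0.

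On chromosome 12 the difference ran along the whole chromosome. Its genes were ordered and split into 5 segments with nearly equal numbers of genes, and the segment medians were 0.30, 0.39, 0.29, 0.38 and 0.32. On X the difference sat at one end, with medians of 0.55, 0.75, 0.05, 0.12 and 0.03 along the chromosome. Segment 2 ends with Ssr4, at 0.46, and segment 3 starts with Hcfc1, at -0.12. That point is set by the equal gene numbers of the segments, so the place of the drop in the medians was not located. Up to that point 44 of 321 genes tested were called higher (13.7%) with a median of 0.61 over 50 genes, and beyond it 8 of 418 (1.91%) with a median of 0.05 over 77 genes. The paired fit called 85 and 17, and the leave-outs that moved the X count gave 29 and 4, 24 and 2, 31 and 2, and 25 and 3. This boundary was placed after the values were seen, so these numbers are a description. Over the 90 segments of the other 18 chromosomes the medians lay between -0.13 and 0.21. For the 5 segments of X, the partial line differed from J1 by 0.43, 0.42, 0.20, -0.02 and 0.19, and MEFs by 0.39, 0.47, 0.17, 0.03 and 0.14. The full line EOS3F-28 differed from J1 by 0.12, 0.08, 0.07, -0.10 and 0.05, and EOS3F-29 by 0.05, 0.04, 0.01, -0.09 and 0.24.

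**Figure D5:**
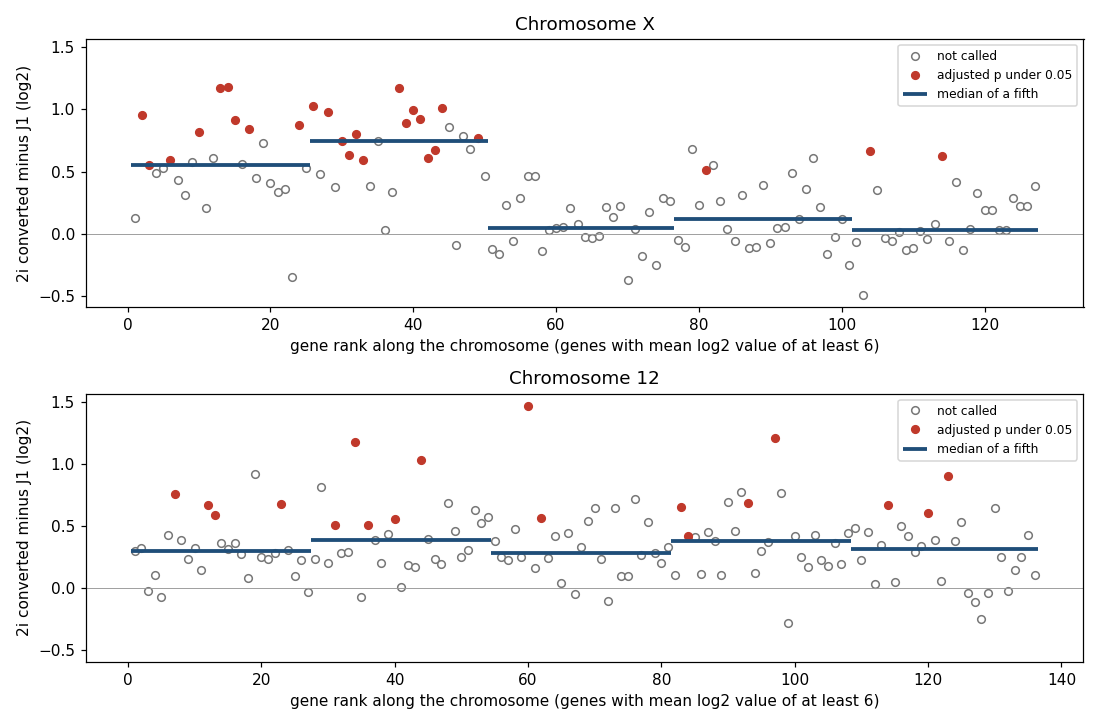
Difference between converted cells and J1 on the log2 scale (vertical axis) for genes averaging at least 6 in log2 value, in their order along chromosomes X and 12 (horizontal axis), with called genes filled and a bar at the median of each of 5 segments. On X the bars stand at 0.55 and 0.75 and then at 0.05, 0.12 and 0.03, and on chromosome 12 they stay between 0.29 and 0.39.

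The higher genes on the first stretch of X have many functions. The X and chromosome 12 genes that follow were chosen after their values were seen, apart from Renbp, Hprt, Ebp, Xist, Nr0b1 and Psma3. Hprt, the purine salvage enzyme, had 9.43, 9.77 and 9.84 in converted cells, against 8.43, 8.63 and 8.47 in J1, a difference of 1.17 ± 0.15 (SE, adjusted p = 0.000407, limma). Renbp, which interconverts N-acetylated amino sugars, lies between Ssr4 and Hcfc1 and is counted beyond the boundary. It had 6.02, 7.08 and 7.32 in converted cells, against 5.19, 5.17 and 5.22 in J1, a difference in Renbp of 1.61 ± 0.28 (SE, adjusted p = 0.0048, limma). Atp6ap2, an accessory protein of the vacuolar proton pump, had 7.41, 8.04 and 7.94 in converted cells, against 6.50, 6.69 and 6.67 in J1, a difference of 1.18 ± 0.19 (SE). None of these 3 overlapped between the groups. Ndufa1, a subunit of respiratory complex I, differed by 1.04 ± 0.12 (SE, adjusted p = 9.46e-05, limma), Wdr45, an autophagy protein, by 1.16, the cohesin subunit Stag2 by 0.80, and the RNA-binding protein Fmr1 by 0.61, all called. Under housekeeping centring their adjusted p was 0.0737, 0.0768, 0.0693 and 0.466 in that order (limma). The centrosome protein Cetn2 differed by 1.01 and the membrane protein Plp2 by 0.96. Ebp, a sterol isomerase and the single call among 18 cholesterol synthesis genes in the main fit, differed by 1.11 (adjusted p = 0.0126, limma). Its adjusted p was 0.0717 without J1 array 2, 0.0642 without J1 array 3 and 0.297 under housekeeping centring. The paired fit called 2 of the 18 cholesterol synthesis genes higher and 4 lower, beside 3.1% and 2.35% of all genes. The deubiquitinase Usp9x had 8.99, 9.02 and 9.42 in converted cells, against 8.23, 8.11 and 8.57 in J1, a difference of 0.84 (adjusted p = 0.0102, limma). Its adjusted p was 0.0795 without converted array 3, 0.0566 without J1 array 2 and 0.111 under housekeeping centring. Dusp9, an X-linked phosphatase of ERK, had 6.54, 7.20 and 6.94 in converted cells, against 5.82, 6.32 and 6.17 in J1, and its difference of 0.79 was not called (adjusted p = 0.124, limma), while the paired fit gave an adjusted p of 0.00077. The lipid regulator Mid1ip1 differed by 1.17 at the probe set used and by -0.08 at another.

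Most genes beyond the boundary were not called. Pgk1, a glycolytic enzyme, differed by -0.06, the glycosyltransferase Ogt by -0.11, the ubiquitin ligase Huwe1 by -0.13, the demethylase Kdm5c by -0.04, the cohesin subunit Smc1a by 0.02 and the nuclear receptor Nr0b1, a member of the pluripotency network, by 0.08, none of them called. Exceptions there were Morf4l2, a chromatin protein, at 0.66 and Pbdc1 at 0.52, which were among the 8 called higher. Without J1 array 3 the adjusted p of Morf4l2 was 0.056. For Pbdc1 it was 0.111 without converted array 3 and 0.0641 without J1 array 2. Some genes there without a call had larger differences, in both directions. Examples are Rps4x at 0.68, Armcx1 at 0.61, Atrx at 0.55 and Mpp1 at 0.47, against Bex3 at -0.49 and Msn at -0.38. In the paired fit Atrx and Mpp1 were called (adjusted p = 0.0137 and 0.0234, limma). Xist, which lies beyond the boundary, had 5.21, 4.74 and 4.71 in converted cells, against 4.85, 4.56 and 4.51 in J1. The groups overlapped, with a difference of 0.24 (95% interval -0.24 to 0.73), beside means of 7.05 in the partial line and 6.90 in MEFs.

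Proteasome genes, a set chosen after the values were seen, include 3 on chromosome 12, and all 3 were higher. Psma3, an alpha subunit of the core particle, had 8.68, 9.25 and 9.23 in converted cells, against 7.93, 7.38 and 7.45 in J1, a difference of 1.47 ± 0.18 (SE, adjusted p = 0.000288, limma). Psmc1, an ATPase of the regulatory particle, had 7.97, 8.19 and 8.28 in converted cells, against 7.38, 6.52 and 6.90 in J1, a difference of 1.21 ± 0.17 (SE, adjusted p = 0.00112, limma). Psma6, another alpha subunit, had 8.31, 8.54 and 8.75 in converted cells, against 7.94, 7.12 and 7.43 in J1, a difference of 1.04 ± 0.19 (SE, adjusted p = 0.00725, limma). None of the 3 overlapped, and these are the proteasome genes on chromosome 12. Further probe sets of Psma3 differed by 1.23 and 1.30 and another of Psmc1 by 1.10. The 47 proteasome genes on other chromosomes had a median difference of 0.08. Of these 47, 2 were called higher and 1 lower, beside 1.06% and 0.652% of all genes. Those called were Psmd6 at 0.92, the assembly chaperone Psmg4 at 0.52 and the immunoproteasome subunit Psmb10 at -0.57. In single leave-outs Psma6 had an adjusted p of 0.0566 without converted array 3. Under housekeeping centring Psma6 and Psmc1 were not called (adjusted p = 0.241 and 0.0609, limma), while Psma3 was. Psmg4 lost its call without converted arrays 1, 2 or 3 (adjusted p = 0.0948, 0.228 and 0.0923) and J1 arrays 2 or 3 (0.181 and 0.236). Psmb10 lost it without converted arrays 2 or 3 (adjusted p = 0.12 and 0.133) and J1 arrays 1 or 3 (0.105 and 0.113). Elsewhere on the chromosome, Ifrd1, a transcriptional coregulator, was higher by 1.18 ± 0.17 (SE, adjusted p = 0.00114, limma) and Mnat1, a subunit of the CDK-activating kinase, by 1.10 ± 0.17 (SE, adjusted p = 0.00217, limma). Under housekeeping centring Ifrd1 was not called (adjusted p = 0.0941, limma) and Mnat1 was. Esrrb and Meg3, whose values are given above, also lie on chromosome 12 and were not called, and Tcl1 lies there and was called.

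On chromosome 8 the converted cells and J1 had higher medians than the other groups of the series. Its median was -0.10 against J1, with arrays at -0.10, -0.11 and -0.10 in converted cells, against 0.05, -0.10 and 0.04 in J1. Relative to J1 it was -0.46 in EOS3F-28, -0.44 in EOS3F-29, -0.30 in the partial line and -0.42 in MEFs. No test was run on these medians.

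In the amino acid stress list 2 of 20 genes were called higher, beside 1.06% of all genes, and none lower, with a list median of 0.20 beside -0.02 over all genes. The paired fit called 3 of the 20 higher and 1 lower, beside 3.1% and 2.35% of all genes. Atf4, the transcription factor that drives the response to amino acid shortage, had 6.86, 6.97 and 7.22 in converted cells, against 6.26, 5.80 and 6.29 in J1, a difference of 0.90 ± 0.16 (SE, adjusted p = 0.00688, limma). Mthfd2, a mitochondrial folate enzyme that Atf4 induces, had 6.86, 7.01 and 6.88 in converted cells, against 6.07, 5.64 and 6.27 in J1, a difference of 0.92 ± 0.16 (SE, adjusted p = 0.00462, limma). Neither overlapped, and without converted array 3 the adjusted p of Atf4 was 0.0536. Under housekeeping centring neither was called (adjusted p = 0.158 for Atf4 and 0.149 for Mthfd2, limma). Phgdh, the first enzyme of serine synthesis and another Atf4 target, went the other way at -0.71 without a call (adjusted p = 0.0679, limma), and was called without converted array 2 (0.0391), with the replicate block in all 18 arrays (0.0324) and in the paired fit (0.00475). Polycomb genes gave 1 call higher among 20, Eed, the reader of H3K27 methylation, at 0.68 ± 0.15 (SE, adjusted p = 0.0234, limma), while a second Eed probe set differed by 0.05. The Eed call was lost without converted array 2 (adjusted p = 0.0731), converted array 3 (0.135), J1 array 2 (0.096) or J1 array 3 (0.103). In the paired fit 3 of the 20 Polycomb genes were called higher and 1 lower. By limma there were 0 calls among 15 DNA methylation and TET genes, 18 glycolysis genes, 24 cell cycle genes, 14 genes of p53 and the CDK inhibitors, 18 interferon and MHC genes and 7 genes of the 2-cell-like state, with 4, 1, 4, 2, 2 and 0 at an unadjusted p under 0.05 in that order. In the same order the paired fit called 1, 1, 1, 2, 2 and 0 higher and 3, 1, 1, 0, 0 and 0 lower. Tet1, the dioxygenase that starts 5-methylcytosine removal, had 7.70, 7.69 and 8.05 in converted cells, against 8.18, 8.16 and 8.39 in J1, a difference of -0.43 without a call (adjusted p = 0.411, limma, and 0.0299 in the paired fit). Over all 28 lists, 457 genes were measured, 10 were called higher and 7 lower (3.72%, beside 1.72% of all genes), and 16 lists held no call. The paired fit called 36 higher and 37 lower (73 of 457, or 16%, beside 5.45% of all genes). The lists were chosen with results of these data known, so these shares are a description.

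The same converted arrays differed from the full lines in more genes than from J1. Against both full lines averaged, 1029 genes were called, and 1030 against EOS3F-28 alone and 493 against EOS3F-29 alone. Esrrb, Zfp42 and Tfcp2l1, factors of the naive state, were higher in the converted cells than in the full lines by 1.21, 1.06 and 0.82 (adjusted p = 0.000132, 0.00355 and 0.00181, limma), beside differences of 0.10, 0.01 and -0.04 from J1. For Dnmt3b and Fgf5 the differences from the full lines were -0.68 and -0.70 (adjusted p = 0.00817 and 0.00339, limma), beside 0.20 and -0.09 from J1. The comparison with the full lines pools 6 arrays, so its count and that against J1 rest on different numbers of arrays.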

How the data were processed

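Gene expression was measured on 18 single-channel mouse arrays, 3 for each of 6 groups, from biotin-labelled total RNA. Per the submitters' processing notes the authors used RMA, and the deposited table gives its log2 values for each probe set. RMA subtracts background, gives all arrays one distribution and summarises the probes of a set. It therefore shrinks differences of dim genes and cannot show a change shared by most genes. Its version and the genome build were not given in the sources used. Values ran from 0.678 to 13.3. For arrays, the number of arrays limits the precision.

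The table holds 34760 probe sets, of which the platform annotation gave 1 symbol to 21640 and several to 1321, and 11799 were not listed. For the 954 genes with more than 1 probe set, the one with the highest mean was used. Chromosomes and the order of genes were taken from a GRCm38.p6 table, in which 82 genes had no chromosome. Groups and replicate numbers came from the titles. limma 3.58.1 in R 4.3.3 (lmFit, eBayes) fitted 1 mean per group to all 18 arrays, with Benjamini-Hochberg adjustment over 19937 genes, and was tested on simulated data. Deviations of equally numbered arrays from their group means correlated at 0.562, 0.454 and 0.150, so equal numbers count as pairs, on the evidence of the values alone, and enter only through the replicate block.

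Named genes are the 15 largest higher and 15 largest lower called differences of at least 2-fold without overlap (predicted and clone-named symbols left out), the 2 largest calls in each direction of each list, a set of markers named whether called or not, and further genes said to be chosen after their values were seen. The members, the 28 lists and the tests were chosen with earlier results of these data known. Alternatives were cyclic loess, housekeeping centring, dim genes left out (mean under 5), other handling of probe sets, a trended robust prior, the 6 arrays alone, the replicate block, and arrays left out in turn.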

Additional observations from a re-analysis of the deposited data

Results flagged for a closer look

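A signal appeared in probe sets outside the gene comparison, those that the platform annotation does not list. Of 11799 such probe sets, 76 were called by limma when every probe set was tested, and 18 were called at least 2-fold higher in the converted cells than in J1, with 9 at least 2-fold lower. The largest differences were 4.31 and -1.69 on the log2 scale. These probe sets have no gene name here.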

How the results depend on the processing

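The count of 342 calls moved with several settings. With housekeeping centring it was 85 (32 higher, 53 lower), with the 6 arrays compared as the only arrays 173 (111 higher, 62 lower), and with the replicate block in those 6 arrays (the paired fit) 1087 (619 higher, 468 lower), of which 337 were among the 342. With the block in all 18 arrays it was 376. Leaving out 1 array gave 133 to 391 calls, 77 to 255 higher, 48 to 138 lower and 53 to 86 of at least 2-fold. The count of at least 2-fold was 113 over every probe set and 101 with the feeder-grown arrays numbered 1 left out. Against the full lines, EOS3F-29 alone gave 493 calls. Cyclic loess gave 485 calls, the trended robust prior 279, and dim genes left out 287. The X median was 0.22 at a mean of at least 5, 0.21 under cyclic loess and 0.14 under housekeeping centring, and 0.25 to 0.30 without 1 array. The chromosome 12 median was 0.26 at a mean of at least 5 and 0.18 under housekeeping centring, and 0.29 to 0.36 without 1 array. The median of the first 2 segments of X was 0.56 at a mean of at least 5, 0.46 under housekeeping centring and 0.60 to 0.66 without 1 array. That of the last 3 segments was 0.13 at a mean of at least 7, 0.037 to 0.12 without 1 array, and reversed to -0.093 under housekeeping centring, which shifts all genes to a median of -0.17. The cause of these moves was not tested. Gas5 at probe set 10351037 (-0.041) and Mid1ip1 at probe set 10603620 (-0.079) reversed. Of 81 named called genes, 34 kept their call under every alternative fit and 47 lost it under at least 1, and of 56 named genes without a call 18 gained one, while none reversed. In all 18 arrays the replicate block changed the call of Phgdh and of no other printed gene refitted under it. The other gains printed with the paired fit came with both the arrays and the block changed, and Epcam was called with the 6 arrays alone (adjusted p = 0.0174, limma). Of 420 recomputed list medians 384 moved by less than the spread between arrays and 36 by more. With 3 arrays in each group and no count behind a value, depth sets no stated limit, and dim genes lie close to background.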
